A study of Rattus norvegicus with 24 samples.

Results

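The hypothalamus of ageing male Sprague Dawley rats was compared between late ages (18 and 24 months) and early ages (4 and 10 months). These 4 samples were taken from 24 arrays, which cover 5 more tissues at the same ages (kidney, liver, bone, pituitary and spleen lymphocyte). Each array was hybridised with equal amounts of RNA of 1 tissue from 10 rats of 1 age, so that a group here is a pair of pools of different ages and not a pair of replicates of 1 age. No treatment or genetic change was made, and at each age the same rats gave all 6 tissues. The labels name no nucleus or cell type of the hypothalamus, and dissection limits are not given.

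The hypothalamus is the part of the brain that links the nervous system to the pituitary and sets body temperature, feeding, water balance, reproduction and the daily cycle. Small groups of its neurons make peptides that are either released into the blood, such as oxytocin and vasopressin, or act on other neurons, such as melanin-concentrating hormone and orexin. The peptide genes are strongly transcribed in few cells, whereas most other genes on the array are shared by neurons and glia of the whole brain.

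Expression was read as probe set signal (the brightness of several probes against 1 transcript), scaled so that each array had the same trimmed mean of 500. Signals under 100 were set to 100 and the log2 was taken. Of 10411 genes on the array, 8560 reached 100 on at least 2 of the 4 hypothalamus arrays and were tested. A gene was called higher or lower where both late arrays lay on the same side of both early arrays and the means differed at least 2-fold. The same difference was also tested with limma, a linear model that borrows the spread of all genes, with Benjamini-Hochberg adjustment over the 8560 genes. An exact two-sided permutation test of 2 arrays against 2 cannot go below 0.333, so no single gene was given a p of that kind. All p-values measure the spread between these pools and not between rats. In whole tissue, fewer cells of a type and less RNA per cell cannot be told apart.

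The tissue matched its label by most of its defining markers. The melanin-concentrating hormone gene Pmch had signals of 14795 and 13303 at 18 and 24 months, against 10356 and 13614 at 4 and 10 months, where liver reached at most 327. The neuronal synapse gene Snap25 had 9626 and 14711 in late arrays, against 10458 and 10122 in early arrays. The ventral forebrain factor Nkx2-1 lay between 522 and 613, the myelin gene Mbp between 13761 and 19210, and the astrocyte gene Gfap between 4148 and 6058 on the 4 arrays. Neurons, oligodendrocytes and astrocytes were thus all measured at both periods. The probe sets of Pomc and Otp, which are hypothalamic genes, never reached 100 (at most 17.0 and 9.95), and Agrp was not analysed here.

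The 2 groups also differed in signs of RNA quality. The log2 of the 3 prime to 5 prime signal of Actb, which is high where RNA is broken, was 1.21 and 1.10 in the late arrays, against 1.89 and 3.09 in the early arrays, and the other 20 arrays ran from 0.48 to 3.74. The same measure for Gapdh was 0.27 and 0.29 in the late arrays, against 0.45 and 0.36 in the early arrays. The median signal was 259 and 271 in the late arrays, against 247 and 235 in the early arrays. All 3 measures separated the groups, and their part in the differences below was not tested. Signals over the tested genes correlated best within a period (r = 0.943 between 18 and 24 months and 0.952 between 4 and 10 months) and least between 4 and 24 months (r = 0.899), as a description across genes.

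The signals of most peptide genes of the hypothalamus overlapped between late and early arrays. Oxt, which codes for oxytocin, had 10767 and 5268 in late arrays, against 8136 and 7578 in early arrays. Avp, which codes for vasopressin, had 6547 and 3373 in late arrays, against 5430.0 and 5065 in early arrays. For both neurohypophysial hormones the 18-month array was the highest and the 24-month array the lowest, and the late pair spanned the early pair. Hcrt, the orexin gene of lateral hypothalamic neurons, had 3056 and 1733 in late arrays, against 3410.1 and 1798 in early arrays. Cartpt, a satiety peptide gene, had 4233 and 5107 in late arrays, against 4603 and 5519 in early arrays. Npy, which drives feeding, had 1932 and 2164 in late arrays, against 2888 and 1684 in early arrays. None of these separated by period, and the late minus early difference ranged from -0.16 to -0.06 on the log2 scale for Oxt, Avp, Hcrt, Npy and Cartpt (SE 0.26 to 0.39, limma adjusted p 0.92 to 0.97).

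Sst, the gene of somatostatin, which holds back growth hormone release, had 3224 and 2116 in late arrays, against 3774 and 1597 in early arrays. Gal, a peptide gene with many hypothalamic sources, had 1862 and 1428 in late arrays, against 2421 and 1726 in early arrays. Tac1, which codes for substance P, had 1008 and 348 in late arrays, against 595 and 1196 in early arrays. The Tac1 signals at 24 and 10 months were thus the extremes, while the other 2 arrays lay between them. The releasing hormone genes were at lower signals. Crh, the releasing hormone of the stress axis, had 203 and 195 in late arrays, against 132 and 141 in early arrays, a separation of 0.55 (SE 0.24, limma adjusted p = 0.50). Trh, of the thyroid axis, lay between 460 and 649, Ghrh, of the growth hormone axis, between 216 and 295, and Gnrh1, of the gonadal axis, between 124 and 204, and all 3 overlapped between the periods.

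**Figure D1:**
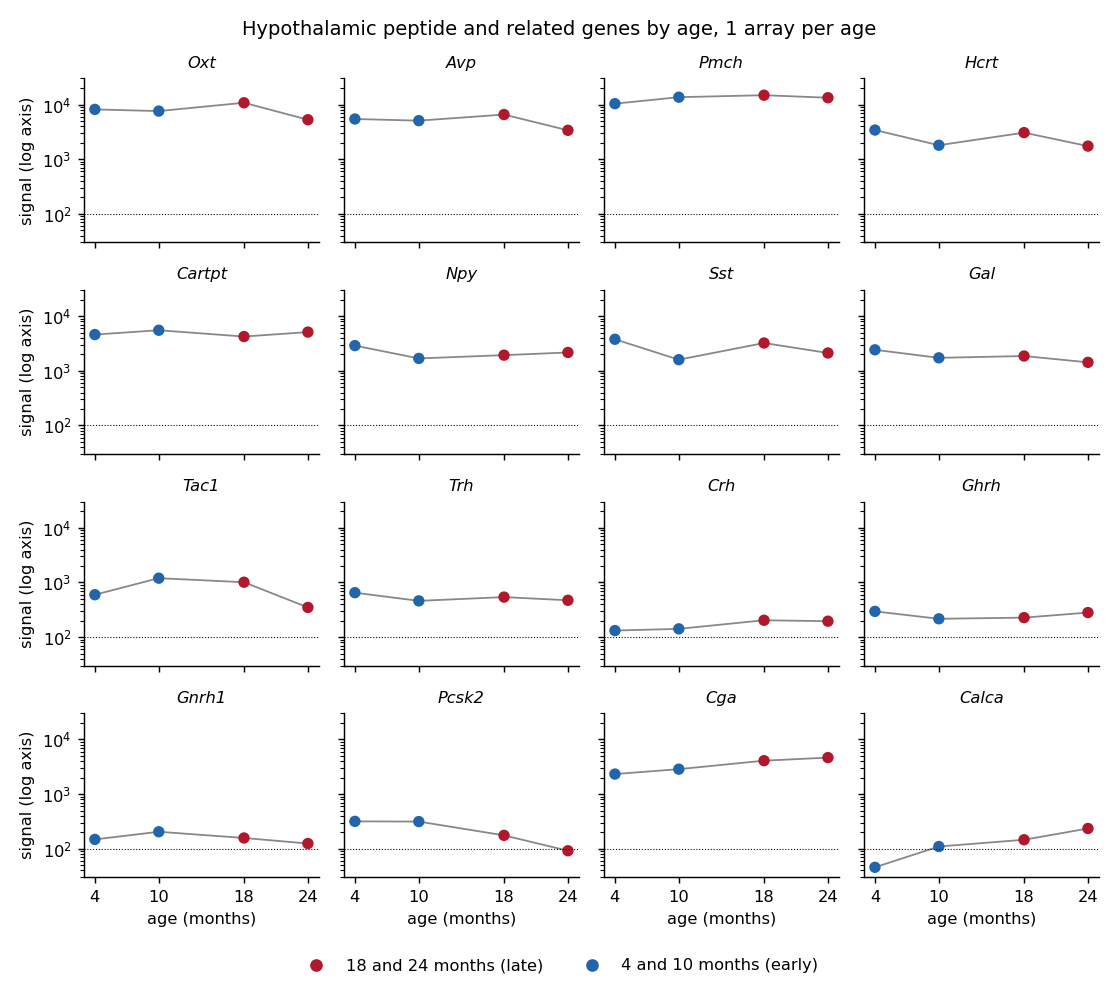
Signal (log axis) of 16 genes against age in months, with 1 hypothalamus array at each age (red 18 and 24 months, blue 4 and 10 months, dotted line the floor of 100). The strongest peptide genes overlap between late and early ages, Cga is at 4647 at 24 months, and Pcsk2 is at 91.7 there.

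Over the whole list of neuropeptides and hypothalamic hormones, 7 of 36 genes tested had both late arrays above both early arrays (19.4%) and 4 had both below (11.1%). Among all 8560 genes tested these shares were 21.4% (1834 genes) and 20.0% (1713 genes). The list's median difference was -0.04, and that of all genes was -0.00. By the 2-fold rule 0 of the 36 were higher and 1 was lower, against 2.42% (207 genes) higher and 1.0% (86 genes) lower among all genes tested. The 1 gene was Pcsk2, a convertase that cuts peptide precursors into active hormones. Pcsk2 had 175 and 91.7 in late arrays, against 316 and 313 in early arrays, a difference of -1.25 (SE 0.31) that did not pass limma (adjusted p = 0.19). Its difference was also more negative than the mean of the other 5 tissues (-1.30, limma adjusted p = 0.0024). Calca, the gene of calcitonin and of a sensory neuropeptide, had 146 and 234 in late arrays, against 45.7 and 109.7 in early arrays, with the 4-month array under the floor.

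No receptor gene for circulating hormones and feeding signals was called. Of 29 tested, 6 lay higher (20.7%, against 21.4% of all genes) and 3 lower (10.3%, against 20.0%) without overlap, 0 passed the 2-fold rule in either direction, and the median was 0.16. The progesterone receptor gene Pgr had 184 and 185 in late arrays, against 105 and 110.4 in early arrays (0.78, SE 0.24, limma adjusted p = 0.31). The thyroid hormone receptor gene Thra had 805 and 1060.4 in late arrays, against 1774 and 1260.4 in early arrays. Neither passed a threshold, and the groups of each did not overlap.

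Against this, 207 genes were higher in late hypothalamus and 86 were lower by the 2-fold rule, and limma called 77 higher (0.9%) and 1 lower (0.0117%), 78 genes or 0.911% of those tested. At an unadjusted p under 0.05 limma counted 873 genes. Every limma call was also a call of the 2-fold rule. The largest change was 25.9-fold among the higher genes and 9.42-fold among the lower ones, with median differences of 1.47 and -1.14. Of the 207, 31 had both early arrays under 100, and of the 86, 10 had both late arrays under 100, so the fold of these is set by the floor. The same held for 12 of the 77 genes that limma called higher, where flooring left the early pair no spread. The limma count fell to 0 when any 1 of the 4 arrays was left out, with smallest adjusted p values of 0.19 to 0.67. Centring each array on its median moved all genes by -0.13 and gave 167 higher and 125 lower, a share of higher calls of 57.2% against 70.6%.

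The widest gap between the closest late and early arrays was that of Slc3a1, followed by Srrm2 and Ddx6, and all 3 rose by limma. Slc3a1, the heavy subunit of an amino acid transporter best known from kidney tubules, had 9086 and 13948 in late arrays, against 484 and 391 in early arrays (4.69, SE 0.30, limma adjusted p = 0.0032). Srrm2, a scaffold of splicing speckles, had 4269.7 and 3581 in late arrays, against 125 and 328 in early arrays (4.27, SE 0.43, limma adjusted p = 0.012). Ddx6, an RNA helicase of messenger RNA decay, had 2440.1 and 1775 in late arrays, against 145 and 167 in early arrays (3.74, SE 0.27, limma adjusted p = 0.0032). The late and early signals of these genes were far apart, and neither late array stood alone.

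A second set of genes was high at 18 months and higher still at 24 months. Ctnnb1, the beta-catenin of cell junctions and Wnt signalling, had 8635 and 23861 in late arrays, against 983 and 1054 in early arrays (3.82, SE 0.44, limma adjusted p = 0.017). Gnb1, a G protein beta subunit, had 8601 and 24011 in late arrays, against 1237 and 866 in early arrays (3.80, SE 0.47, limma adjusted p = 0.020). Rab14, a small GTPase of endosomal traffic, had 4343 and 17384 in late arrays, against 508 and 780.4 in early arrays (3.79, SE 0.59, limma adjusted p = 0.036). In all 3 the 24-month signal was more than 2-fold above the 18-month signal, while the early pair lay close together. Ythdf2, a reader of methylated RNA (2175 and 5095 in late arrays, against 278 and 231 in early arrays), and Dync1li1, a dynein subunit (2953 and 12598 in late arrays, against 550.4 and 444 in early arrays), had the same course.

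The other 4 of the 12 widest gaps lay at lower late signals, and all 4 rose by limma. Nipbl, which loads cohesin onto chromosomes, had 996 and 729 in late arrays, against 110.1 and 128 in early arrays. Tsn, which binds nucleic acids, had 847 and 560.1 in late arrays, against 97.2 and 88.5 in early arrays. Nav1, a neuronal microtubule protein, had 699 and 683 in late arrays, against 122 and 122 in early arrays. Wdfy1, an endosomal adaptor, had 1173 and 1022 in late arrays, against 79.3 and 110.4 in early arrays. Both early arrays of Tsn and the 4-month array of Wdfy1 lay under the floor, so that their folds are understated. Tsn was thus tested only because its late signals were high, and flooring left its early pair no spread.

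**Figure D2:**
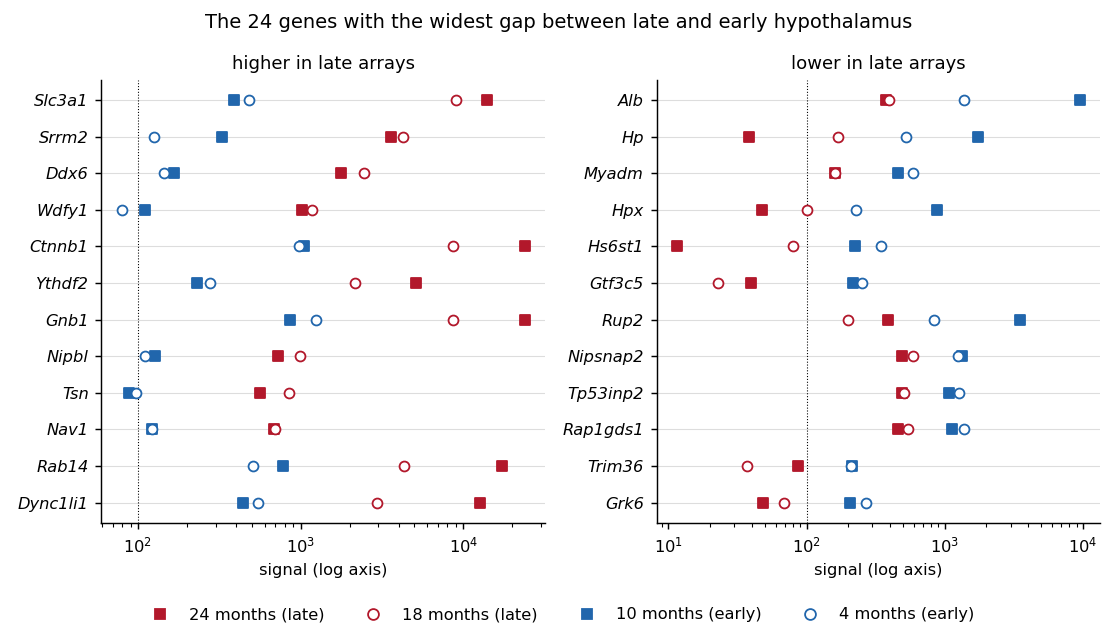
Signals (log axis) on the 4 hypothalamus arrays of the 12 higher and 12 lower genes with the widest gap, late arrays in red and early arrays in blue, the dotted line at 100. Slc3a1 has 9086 and 13948 in late arrays, against 484 and 391 in early arrays, and Alb has 393 and 376 in late arrays, against 1371 and 9579.5 in early arrays.

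Of 14 hypothalamus marker genes tested, 5 lay higher without overlap (35.7%) and 1 lower (7.14%), against 21.4% and 20.0% of all genes tested. Gad2 and Isl1 were higher by the 2-fold rule, as were 2.42% of all genes tested. Gad2, which makes the transmitter GABA, had 552 and 376 in late arrays, against 61.5 and 66.9 in early arrays. Its partner Gad1 had 172 and 168 in late arrays, against 98.7 and 65.0 in early arrays, under 2-fold on the floored scale. Cplx2, a complexin that clamps synaptic vesicle fusion, had 266 and 343 in late arrays, against 57.6 and 14.5 in early arrays. The early signals of Gad2, Gad1 and Cplx2 lay under 100, so these genes were tested only because their late signals were high, and flooring left the early pair no spread of its own. The lower marker was Slc32a1, the vesicle transporter of GABA, at -0.49. Isl1, a factor of arcuate neurons, had 289 and 394 in late arrays, against 91.8 and 144 in early arrays, and did not pass limma (adjusted p = 0.079).

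Of 37 axon cytoskeleton genes tested, 7 lay higher (18.9%) and 9 lower (24.3%) without overlap, 2 were higher by the 2-fold rule (Dync1li1 and Ank3) and 0 lower, and the median was -0.01. These shares were 21.4% and 20.0% among all genes tested, and 2.42% and 1.0% by the 2-fold rule. The microtubule gene Mapt (-0.78) and the neurofilament genes Nefm (-0.77), Nefh (-0.56) and Nefl (-0.43) were among the 9, all under 2-fold.

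Of 30 genes tested of glutamate and GABA receptors, which carry fast excitation and inhibition, 12 lay higher without overlap (40.0%, against 21.4% of all genes) and 2 lower (6.67%, against 20.0%). By the 2-fold rule 5 were higher and 0 lower, against 2.42% and 1.0% of all genes. The median was 0.13, and -0.05 without the 10-month array. Gria2, an AMPA receptor subunit, had 2357 and 2906 in late arrays, against 489 and 1555 in early arrays, so its call rested on the 4-month array. Its second probe set overlapped between the periods (-0.06). Grm3, a metabotropic receptor, had 751 and 811 in late arrays, against 321 and 329.9 in early arrays. Gabrg1, a GABA receptor subunit, had 449.8 and 550.2 in late arrays, against 238 and 192 in early arrays. None of the 30 passed limma over the 4 arrays.

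Of 40 voltage-gated channel genes tested, which set neuronal firing, 10 lay higher and 5 lower without overlap, and 4 passed the 2-fold rule, all higher (Scn3a, Cacng2, Kcnd2 and Kcnq3), beside a median of -0.03. Of 40 synaptic vesicle genes, 10 lay higher and 6 lower, with 2 higher by the 2-fold rule (Sv2b and Cplx2) and 1 lower. The lower gene was Vamp2, the vesicle SNARE, with 1869 and 1715 in late arrays, against 5749 and 2326 in early arrays. Sv2b had 4178 and 3648 in late arrays, against 226 and 3000.2 in early arrays, so its call and that of Vamp2 rested on the 4-month array. Second probe sets of Vamp2 (0.35) and Cacng2 (-0.05) overlapped between the periods. Those of Kcnd2 (1.95) and Sv2b (0.72, the most strongly read) lay higher without overlap. So did that of Kcnq3 (0.35), which entered only because its late signals were high. The share of genes higher without overlap was 21.4% among all genes, near that of both lists.

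No gene of the myelin, astrocyte or microglia lists passed limma. For comparison, 21.4% of all genes tested lay higher and 20.0% lower without overlap, with 2.42% and 1.0% by the 2-fold rule. Of 24 myelin genes tested, 4 lay higher and 8 lower without overlap (16.7% and 33.3%), with 1 higher and 2 lower by the 2-fold rule and a median of -0.15. Mal, a myelin membrane protein, had 1092 and 721 in late arrays, against 2025 and 1584 in early arrays (-1.01, limma adjusted p = 0.28), and the peripheral and central myelin gene Pmp22 had 1149 and 840.4 in late arrays, against 647 and 282 in early arrays. The call of Mal rested on the 4-month array and that of Pmp22 on the 10-month array. A second probe set of Pmp22 overlapped between the periods (0.21). Of 26 astrocyte genes, 6 lay higher (23.1%) and 3 lower (11.5%) and 0 passed the 2-fold rule (median 0.14). Of 27 microglia and macrophage genes, 6 lay higher (22.2%) and 2 lower (7.41%), with a median of 0.30, 0 higher and 1 lower by the 2-fold rule. That gene was Serpina1, a plasma protease inhibitor that is also on the liver list.

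Among all genes tested 21.4% lay higher and 20.0% lower without overlap, and several immune and growth lists had a larger share higher. By the 2-fold rule 2.42% of all genes were higher and 1.0% lower. Of 29 interferon-induced genes tested, 12 lay higher (41.4%) and 3 lower (10.3%), 0 passed the 2-fold rule, and the median was 0.20. Of 9 MHC class II genes, which present antigen, 4 lay higher (44.4%) and 0 lower (median 0.26), among them RT1-Db1 with 244 and 307 in late arrays, against 146 and 154 in early arrays. Of 21 proliferation genes, 10 lay higher (47.6%) and 0 lower (median 0.24), and 1, the replication helicase gene Mcm5 (1.10), was higher by the 2-fold rule, which rested on the 10-month array. Of 43 ribosomal protein genes, 15 lay higher (34.9%) and 0 lower (median 0.22), and 1, Rpl39 (1.69), was higher by the 2-fold rule. The ribosomal list stood out at 18 months alone, with medians relative to the mean of the 4 arrays of 0.34 at 18 months and -0.14 at 24 months, against -0.15 at 4 months and -0.04 at 10 months. Its median difference was 0.43 without the 24-month array. The complement list (19.0% of 21 genes higher) and that of growth and neurotrophic factors (22.6% of 31) were near the share of all genes. Pcna, a clamp of DNA replication and repair, had 1766 and 2440.4 in late arrays, against 914 and 1429 in early arrays. No member of the interferon, MHC class II, proliferation or ribosomal lists passed limma.

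Of 63 heat shock and chaperone genes tested, which fold proteins, 6 lay higher (9.52%, against 21.4% of all genes) and 19 lower (30.2%, against 20.0%) without overlap, with 1 higher and 1 lower by the 2-fold rule and a median of -0.15. Among all genes tested 2.42% were higher and 1.0% lower by the 2-fold rule, and limma called 0.911%. Hyou1, a chaperone of the endoplasmic reticulum, had 474 and 114 in late arrays, against 1154 and 604 in early arrays (-1.84, limma adjusted p = 0.36), whereas the small heat shock gene Hspb1 had 556 and 579 in late arrays, against 248 and 263 in early arrays (1.15, limma adjusted p = 0.10). Of 22 cholesterol synthesis genes, 3 lay higher (13.6%) and 8 lower (36.4%, median -0.12). Of 76 oxidative phosphorylation genes, 10 lay higher and 10 lower (13.2% each, median -0.08). Of 41 proteasome genes, 4 lay higher (9.76%) and 8 lower (19.5%), and the only call was Psmd11, a regulatory particle subunit, with 1691 and 1954 in late arrays, against 399 and 588 in early arrays (1.91, SE 0.28, limma adjusted p = 0.032). Its second probe set overlapped between the periods (0.14). Of 40 insulin, mTOR and sirtuin genes, Foxo1, the forkhead factor held back by insulin, was the single limma call, with 383 and 388 in late arrays, against 81.8 and 122 in early arrays (1.80, SE 0.25, limma adjusted p = 0.029).

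**Figure D3:**
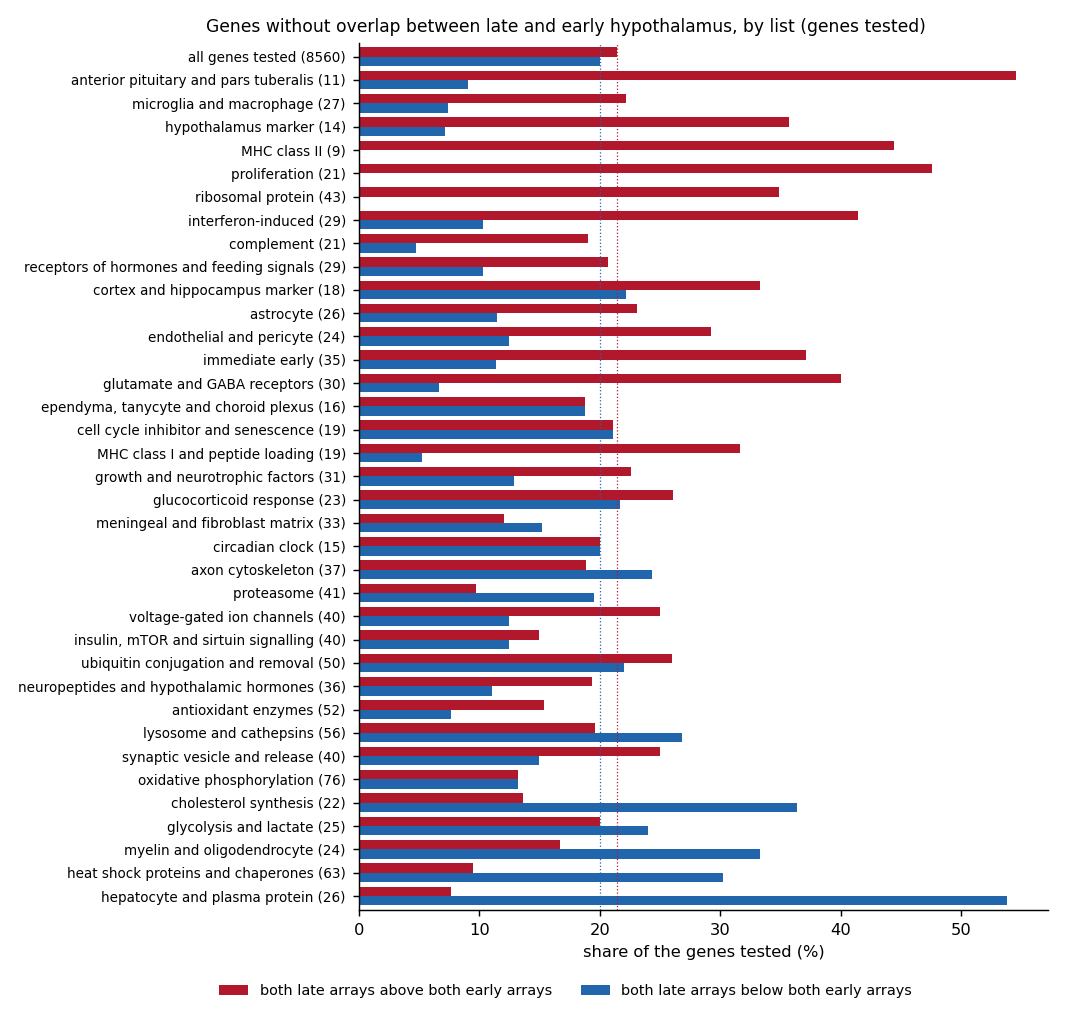
Share (%) of the genes tested of each list, with their number in brackets, whose late arrays both lay above (red) or both below (blue) the early arrays, ordered by the list's median difference and with the shares over all genes as dotted lines. The hepatocyte and plasma protein list has the largest share lower, 53.8%, and ribosomal protein and proliferation genes have none lower.

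The 86 lower genes were led by genes of the liver. Of 26 hepatocyte and plasma protein genes tested, 14 lay lower (53.8%) and 2 higher (7.69%) without overlap, 11 were lower by the 2-fold rule, and the median was -0.84. Shares over all genes tested were 20.0% lower and 21.4% higher without overlap, and 1.0% lower by the 2-fold rule. Alb, serum albumin, had 393 and 376 in late arrays, against 1371 and 9579.5 in early arrays (-3.24, SE 0.76, limma adjusted p = 0.16). Hp, haptoglobin, had 170 and 38.1 in late arrays, against 522 and 1729 in early arrays (-2.87, SE 0.54, limma adjusted p = 0.071). Hpx, hemopexin, had 100.3 and 47.5 in late arrays, against 230 and 882 in early arrays. In each of these the 10-month array was the highest by far, and the 4-month array lay between it and the late pair.

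The same held along the list. Of the 86 lower genes, 14 had a 10-month signal at least 2-fold above the 4-month one, and these were the 11 list members with Abcd3, Pigr and Rup2. The summed signal of the 38 list genes on the array was 17909 and 17067 in late arrays, against 19494 and 38125 in early arrays. The median of the list was -0.32 without the 10-month array, in place of -0.84, and 0 of its genes passed limma. Liver signals of Alb were 67352 to 72484, and Apoa1, another defining liver gene, had 160.8 at 10 months and at most 19.2 on the other arrays. Erythroid genes had summed signals of 5652 and 3916 in late arrays, against 5525 and 4499 in early arrays. Liver RNA in the 10-month pool and a change in the rats of that age cannot be told apart with 1 array.

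Outside the liver list the largest differences among the lower genes were those of Rup2, with 200.2 and 386 in late arrays, against 833 and 3537 in early arrays (-2.63), and of the chaperone gene Hyou1 (-1.84), both with pairs that lay far apart. Myadm, a membrane protein first found in myeloid cells, was the single gene that fell by limma, with 162 and 160.0 in late arrays, against 585 and 463 in early arrays (-1.69, SE 0.25, adjusted p = 0.035). Nipsnap2, a mitochondrial protein, had 593 and 495 in late arrays, against 1258 and 1339.9 in early arrays. The second probe set of Nipsnap2 went the other way without overlap, with 179 and 208 in late arrays, against 60.1 and 53.5 in early arrays. Tp53inp2, which acts in autophagy, had 509 and 494 in late arrays, against 1279 and 1077 in early arrays. Rap1gds1, an exchange factor of small GTPases, had 543 and 458 in late arrays, against 1383 and 1137 in early arrays. Gtf3c5, Hs6st1, Trim36 and Grk6 completed the widest gaps, each with both late signals under 100, so that their folds are understated. Each was tested only because its early signals were high, and flooring left its late pair no spread. At the limit of 2-fold, Nrn1l (1.0014) lay just inside and Diaph3 (0.9997) just outside among the higher genes, and Fggy (-1.0011) inside and Mest (-1.0) outside among the lower.

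Many genes are read by more than 1 probe set, and the second one allows the same difference to be looked at again on the same arrays. Of the 207 higher genes, 75 had a second probe set that reached 100 on at least 2 arrays, and where several did the one with the highest mean signal was taken. On it, 36 were above 0 and 39 below, 9 passed the 2-fold rule as higher and 4 as lower, and the median was -0.03, against 1.51 on the probe set used. Of the 86 lower genes, 12 had a second probe set, with 2 passing as lower (Alb and Rup2), 1 as higher and a median of 0.30, against -1.16. Over all 1179 genes tested with a second probe set, 9.92% passed on it as higher and 1.53% as lower. The call of most of these genes thus did not hold on their second probe set, and which transcripts each probe set reads was not tested.

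The widest gaps included clear cases of this. A second probe set of Gnb1 had 263 and 173 in late arrays, against 3136 and 3434 in early arrays, which is the opposite of the first (-3.94, against 3.80). A second probe set of Ctnnb1 had 2249 and 1205 in late arrays, against 4251 and 5992 in early arrays (-1.62, against 3.82). A second probe set of Srrm2 had 1052 and 736 in late arrays, against 1409 and 1152 in early arrays. Ddx6 and Wdfy1 overlapped between the periods on theirs. By contrast, the most strongly read second probe set of Rab14 had 2151 and 1855 in late arrays, against 360.1 and 347 in early arrays, and Ythdf2 had 949 and 835 in late arrays, against 202 and 188 in early arrays, both higher on both. Rab14 had 2 more probe sets, at -0.22 without overlap and at -0.31 with overlap. The other 7 that were higher on both, chosen after their values were seen, were Dusp6, Id4, Kcnd2, Nfib, Nr4a3, Sorl1 and Tcf4. The second probe sets of Dusp6, Nfib and Nr4a3 lay under 100 on both early arrays. They thus entered only because their late signals were high. The 9 genes higher on both were 12.0% of the 75, near the 9.92% over all genes tested with a second probe set.

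**Figure D4:**
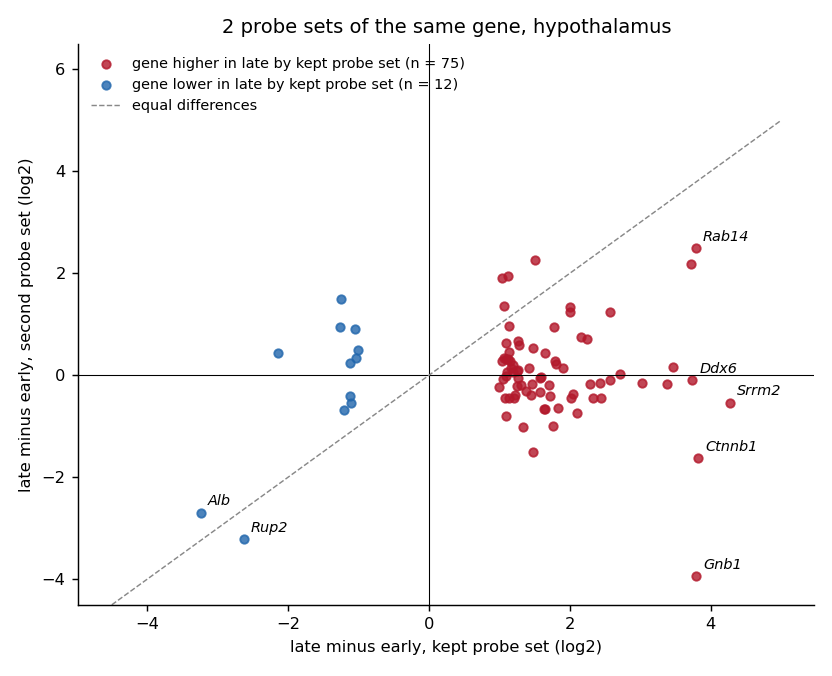
Late minus early difference (log2) of the second probe set against that of the probe set used, for the 75 higher genes (red) and 12 lower genes (blue) that had one, with the line of equal differences. Most points lie near 0 on the vertical axis, Rab14 is higher on both of the probe sets plotted, Alb and Rup2 are lower on both, and Gnb1 is at 3.80 and -3.94.

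For Slc3a1 no second probe set was used. In the annotation used for names Slc3a1 overlaps Prepl, a peptidase gene, whose own probe set had 392 and 465 in late arrays, against 353 and 414 in early arrays. The kidney signal of Slc3a1 was 20690.1 to 22573, and the pituitary signal 2306 to 5303. Its late hypothalamus signals thus lay between those of pituitary and kidney, and which of the overlapping genes the probe set reads was not tested.

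The level of the 207 higher genes in the other tissues was uneven. Relative to the mean of the late hypothalamus arrays, their median was -1.54 and -1.41 in the early hypothalamus at 4 and 10 months, and -1.63 to -1.34 on the 4 kidney arrays. It was -0.39 to -0.19 in pituitary, -0.47 to -0.37 in spleen lymphocyte, -0.62 to -0.52 in liver and -1.02 to -0.52 in bone. The early hypothalamus medians thus lay near those of kidney, and the late ones nearer to those of pituitary and spleen lymphocyte. The rule that picked these genes set the early level, so this likeness is a description and not a test. The kidney arrays averaged at least 2-fold under the 4 other tissues for 90 of the 207 (43.5%), against 8.95% of all genes tested, and for 14 of the 86 lower genes (16.3%).

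Among single genes, Srrm2 and Ddx6 were low in kidney and high in the 4 other tissues, while Gad2 and Slc3a1 were not. Srrm2 had 187 to 348 in kidney and 1792 to 11357 in pituitary, spleen lymphocyte, liver and bone. Ddx6 had 133 to 221 in kidney and 792 to 5299 in those 4 tissues. Gad2 had no tissue but the late hypothalamus above 178, and Slc3a1 had kidney as its highest. Kidney's part in these differences was not tested. The kidney arrays had an Actb 3 prime to 5 prime log2 of 1.40 to 1.93, within the range of the 4 hypothalamus arrays. Their Gapdh measure, 0.65 to 0.80, lay above the hypothalamus range of 0.27 to 0.45.

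**Figure D5:**
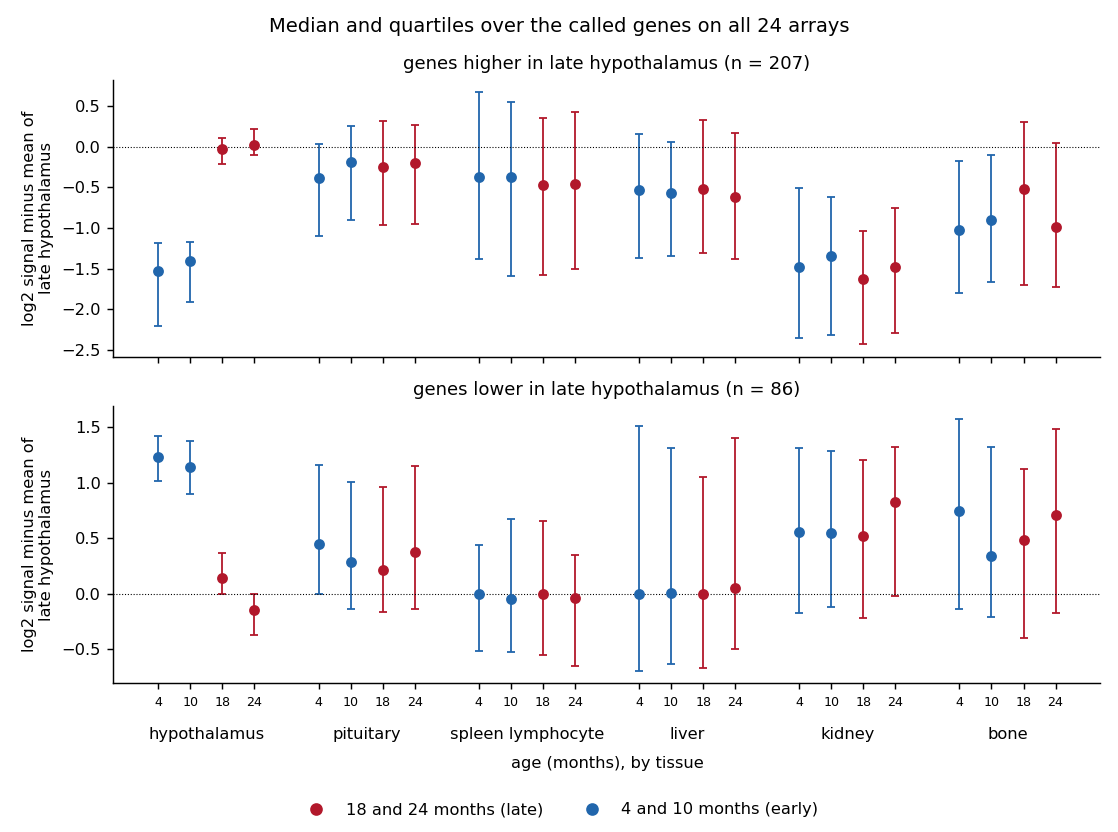
Median and quartiles over the 207 higher (top) and 86 lower genes (bottom) of log2 signal minus the mean of the late hypothalamus, on all 24 arrays by tissue and age. On the higher genes the early hypothalamus (-1.54 and -1.41) lies with kidney (-1.63 to -1.34), and on the lower genes the early hypothalamus (1.24 and 1.14) lies above all other arrays. The early hypothalamus levels relative to the late ones follow from the rule that picked the genes.

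The late minus early difference was then set against the mean of the same difference in the other 5 tissues, over all 24 arrays, with limma. It differed for 166 genes (1.94%), 128 with a more positive difference in hypothalamus (1.5%) and 38 with a more negative one (0.444%). Of the 207 higher genes 119 were among the 128, and of the 86 lower genes 28 were among the 38. Srrm2 (4.50, SE 0.34), Slc3a1 (4.60, SE 0.37) and Ddx6 (3.82, SE 0.28) differed most clearly (adjusted p 5.2e-07 or less). Hp (-3.32) and Serpina1 (-1.52) passed among the liver genes, while Alb did not (-3.32, adjusted p = 0.13). Under the same 2-fold rule the other tissues had 15 genes higher and 10 lower in pituitary, 78 and 39 in spleen lymphocyte, 85 and 36 in liver, 17 and 38 in kidney, and 149 and 190 in bone. The hypothalamus thus had the most higher genes of the 6 tissues and bone the most lower ones, with no test of that order.

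Over the 4 ages, the largest group of higher calls lay between 10 and 18 months. Between 4 and 10 months 84 genes were at least 2-fold higher and 224 lower (0.981% and 2.62%). Between 10 and 18 months 289 were higher and 128 lower (3.38% and 1.5%), and between 18 and 24 months 174 were higher and 186 lower (2.03% and 2.17%). With 1 array per age these counts have no error. Signals were higher at each age than the one before for 511 genes and lower at each age for 538, which included 65 of the 207 higher and 38 of the 86 lower genes.

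Of the 207 higher genes, 181 stayed within 2-fold between 18 and 24 months, 22 were at least 2-fold higher again at 24 months, and 4 were at least 2-fold back. The 22 included Ctnnb1, Gnb1, Rab14, Ythdf2 and Dync1li1. The 4 were Arid4a, a chromatin protein (51.6, 112, 1077 and 524 at 4, 10, 18 and 24 months), Nfix, a factor of neural stem cells (16.4, 20.0, 987 and 408), Pacsin1, of synaptic endocytosis (124, 110.5, 649.7 and 289), and Mxd4, a partner of Max (98.9, 21.5, 389 and 103). Each peaked at 18 months, and both early signals of Nfix and of Mxd4 lay under 100. Of the 86 lower genes, 70 stayed within 2-fold, 15 went at least 2-fold lower again and 1, the kinase subunit Prkag2, came back up (505, 649, 155 and 381).

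Markers of neighbouring tissue took courses of their own. Cga, the common subunit of pituitary glycoprotein hormones, which the pars tuberalis also makes, had 2322, 2855, 4080 and 4647 at 4, 10, 18 and 24 months and was higher at each age. Of 11 anterior pituitary and pars tuberalis genes tested, 6 lay higher (54.5%, against 21.4% of all genes) and 1 lower (9.09%, against 20.0%) without overlap. The summed signal over the 17 on the array was 9615 and 10606 in late arrays, against 7464 and 8131 in early arrays. Gh1 and Prl, which define the anterior lobe, had at most 146 and 123 on any array. The thalamus markers Tcf7l2 (1507, 645, 641 and 2223) and Prkcd (935, 360.3, 403 and 1243) were high at 4 and 24 months and low at 10 and 18. The summed signal of the 8 thalamus markers was 7955 and 17071 in late arrays, against 11469 and 8644 in early arrays, so it did not follow the periods. The part of neighbouring tissue in the differences was not tested.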

How the data were processed

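Total RNA was pooled from 10 rats per tissue and age and hybridised to 1 Affymetrix RAE230A array each. The authors computed the deposited values, which are MAS5.0 intensities (linear signals per probe set) scaled to a trimmed mean of 500. Its version was not given in the sources used here. Precision is limited by there being a single array for every tissue and age.

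Of 15923 probe sets, 12783 had 1 gene symbol in the array annotation, 312 several, 2771 none and 57 were controls. Only those with 1 symbol named a gene, 12754 had a gene identifier in the RefSeq table (GRCr8), and for genes with several probe sets (1868) the one at 100 or more on most of the 24 arrays was used. No further normalization was applied. Signals were floored at 100 before log2, and genes at 100 or more on 2 of 4 hypothalamus arrays were tested. The main test was limma on the 4 hypothalamus arrays (2 residual degrees of freedom), and limma on 24 arrays in 12 groups of tissue and period was used to compare tissues (12 residual degrees of freedom), two-sided, at an adjusted p of 0.05.

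Members, gene lists and tests were chosen with earlier results of these data known. The genes named are the 12 higher and 12 lower by the 2-fold rule with the widest gap between the closest late and early arrays, up to 4 members with the largest difference of each list described, main hypothalamic peptides, the first 10 genes of each limma fit, the genes with the largest difference in each course, and cell type markers. Only some of these are printed. Genes named for an overlap or a second probe set were chosen after their values were seen. Alternatives were other floors, a pseudocount of 50, quantile and median normalization, other filters, probe set rules and fold limits, and leaving out each array. R 4.3.3 with limma 3.58.1 and Python 3.11.15 with numpy 2.4.6, pandas 2.3.3 and matplotlib 3.10.9 were used. The adrenal arrays were not analysed here.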

Additional observations from a re-analysis of the deposited data

Results flagged for a closer look

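The late minus early difference in hypothalamus was set against the mean of the same difference in pituitary, spleen lymphocyte, liver, kidney and bone by a test of the difference itself (limma over 24 arrays), and 166 genes passed an adjusted p of 0.05. The values that follow are on the log2 scale, and positive ones mean a more positive difference in hypothalamus. Among the widest gaps it was 4.60 for Slc3a1, 4.50 for Srrm2, 4.17 for Rab14, 4.03 for Gnb1 and 3.98 for Ctnnb1. It was 3.82 for each of Ddx6, Ythdf2 and Dync1li1, 3.51 for Wdfy1, 2.96 for Nipbl, 2.85 for Tsn and 2.35 for Nav1. Further down limma's order it was 3.28 for the zinc finger gene Zfp91, 2.97 for the carboxypeptidase gene Cpd, 2.58 for the splicing factor gene Rbfox2, 2.56 for the ubiquitin ligase gene Nedd4 and 2.23 for the cell adhesion gene Ntm. For genes that peaked at 18 months it was 2.93 for Arid4a, 2.70 for Nfix and 1.70 for Pacsin1. Both early signals of Nfix and of Tsn lay under 100. These genes were thus tested only because their late signals were high, and flooring left their early pairs no spread. The most strongly read second probe sets of Gnb1 (-3.94), Ctnnb1 (-1.62), Srrm2 (-0.53) and Nedd4 (-0.45) lay lower in late arrays without overlap. Those of Ddx6 and Wdfy1 overlapped between the periods, and those of Rab14 and Ythdf2 lay higher.

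Of members of the marker, synapse, receptor, channel and axon lists, the difference was 2.15 for Gad2, 1.56 for Isl1, 1.56 for Cplx2, 1.54 for Gria2, 1.29 for the sodium channel gene Scn3a, 1.26 for Grm3, 1.18 for Gabrg1 and 1.02 for Ank3, the ankyrin of axon initial segments. For other list members it was 2.32 for Foxo1, 2.0 for Psmd11, 1.78 for the ribosomal protein gene Rpl39, 1.65 for the phosphatase gene Dusp6, 1.40 for the ubiquitin conjugase gene Ube2g1, 1.21 for the monocarboxylate transporter gene Slc16a7 and 0.86 for Tnr, a matrix protein of oligodendrocyte precursors. Both early signals of Gad2 and of Cplx2 lay under 100. Those genes were tested only because their late signals were high, and flooring left their early pairs no spread. Second probe sets of Gria2, Ank3 and Psmd11 overlapped between the periods. The most strongly read ones of Ube2g1, Foxo1 and Dusp6 lay higher. Of these, Foxo1 and Dusp6 entered only because their late signals were high.

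In the other direction it was -3.32 for Hp, -1.77 for Myadm, -1.61 for Hs6st1, -1.52 for Serpina1, -1.43 for Nipsnap2, -1.30 for Pcsk2, -1.28 for the early response factor Klf6 and -1.24 for Gtf3c5. It was -1.23 for Ube2r2 and -1.13 for Ube2h, both ubiquitin conjugases, -1.20 for Rap1gds1, -1.18 for Grk6, -1.16 for Mal and -1.08 for Trim36. Nipsnap2 and Klf6 each had a second probe set that lay higher in late arrays without overlap. Both late signals of Hs6st1, Gtf3c5, Grk6 and Trim36 lay under 100. Those genes were tested only because their early signals were high, and flooring left their late pairs no spread. No group held 4 arrays, so single arrays were not looked at for outliers.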

How the results depend on the processing

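The limits of these results are those of the design: 1 array per age, no repeat of any pool, and periods that differ in RNA quality measures as well as age. Signals near 100 carry little information on fold. Early and late arrays could not be paired, because the labels give no replicate numbers that they share. The rats of 1 age gave all 6 tissues, and with age as a block, added after seeing the data, 152 genes differed from the other tissues in place of 166, with 147 in both.

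The 78 limma calls became 127 with a floor of 50 and 198 with the spread taken from all 24 arrays, and 43 with quantile normalization, 34 with each array centred on its median, 22 with the mean of all probe sets and 31 without the genes low in kidney (an alternative added after seeing the data). They became 0 with a floor of 200 and 0 with no filter on low signals. Leaving out any 1 array gave 0 throughout, where 514 to 1034 genes had an unadjusted p under 0.05. Other settings gave 67 to 117. The cause of these changes was not tested.

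The 207 higher and 86 lower genes became 327 and 136 with a floor of 50, 619 and 448 with a limit of 1.5-fold, 89 and 12 with a limit of 3-fold, and 128 and 18 where the smallest of the 4 differences was held to 2-fold. The lower genes became 48 with a floor of 200. Leaving out 1 array gave 222 to 348 higher and 86 to 220 lower, with 348 and 220 without the 18-month array and 189 lower without the 10-month array. In alternatives added after seeing the data, 9 higher and 2 lower genes passed on a second probe set too, and 117 higher genes remained without the genes low in kidney. With the median or quantile normalization 167 and 176 of the 207 were still called. The 166 genes that differed from the other tissues ranged from 111 to 238 over all alternatives.

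The difference of 4 called genes changed sign: Gnb1 was at -0.022 with the mean of its probe sets, and Wdfy1 (-0.18), Zfp91 (-0.15) and Cacng2 (-0.050) with the probe set of highest signal in hypothalamus. Of 2459 values of 193 named genes under the alternatives, 2237 stayed within 1 SD of the arrays of a period, and 38 of these genes changed sign in at least 1 alternative. Medians of gene lists changed sign in at least 1 alternative for 25 of 40 lists.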

Other observations

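Early response genes, which neurons switch on within minutes of activity, lay higher in late hypothalamus for 13 of 35 genes tested (37.1%, against 21.4% of all genes) and lower for 4 (11.4%, against 20.0%) without overlap (median 0.13). By the 2-fold rule 2 were higher and 1 lower, against 2.42% and 1.0% of all genes. Dusp6, a phosphatase of growth factor signalling, had 523 and 642 in late arrays, against 197 and 211 in early arrays (1.51, SE 0.25, limma adjusted p = 0.049), and its most strongly read second probe set also lay higher in late arrays. That probe set had 49.7 and 15.4 in early arrays, so it entered only because its late signals were high. Another probe set of Dusp6 lay higher by 0.56, under 2-fold. Nr4a3, a nuclear receptor, had 192 and 230.2 in late arrays, against 57.3 and 89.5 in early arrays. It was thus tested only because its late signals were high, and flooring left its early pair no spread. Klf6, a zinc finger factor, had 142 and 219 in late arrays, against 325 and 405 in early arrays. Its second probe set went the other way without overlap, with 162 and 221 in late arrays, against 79.2 and 89.5 in early arrays.

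Ubiquitin genes went both ways, with 13 of 50 higher and 11 lower without overlap, near the shares of all genes, and 2 in each direction by the 2-fold rule. Nedd4, a ligase of neuronal membrane proteins, had 5392 and 4515 in late arrays, against 881 and 932 in early arrays (2.45, SE 0.25, limma adjusted p = 0.012), while its second probe set had 2306 and 2028 in late arrays, against 2578 and 3364 in early arrays. Ube2r2, a conjugase, had 837 and 580.2 in late arrays, against 1505 and 1563 in early arrays. Lysosome genes had 11 of 56 higher (19.6%) and 15 lower (26.8%), antioxidant genes 8 of 52 higher (15.4%) and 4 lower (7.69%), and clock genes 3 of 15 in each direction (20.0%), all 3 lists with 0 genes past the 2-fold rule.

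Of 2099 probe sets with no single gene symbol that reached 100 on at least 2 hypothalamus arrays, 149 were higher (7.1%) and 25 lower (1.19%) in late arrays by the 2-fold rule, against 2.42% and 1.0% of the named genes. Second probe sets of named genes, at 9.92% higher and 1.53% lower, lay on the same side. The probe set used for a named gene with several was the one at 100 or more on most of the 24 arrays. No such pick was made for the others, so these shares are not of like sets.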
